A study of Mus musculus with 6 samples.

Results

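The clustered protocadherins are cell-surface adhesion proteins of the cadherin superfamily, encoded by the alpha, beta and gamma gene clusters that lie side by side on mouse chromosome 18. Members were all genes of the deposited table whose symbol starts with Pcdha, Pcdhb or Pcdhg. They were 48 of the 17558 genes of the table: 5 alpha, 21 beta and 22 gamma genes, the last made up of 12 gamma a, 7 gamma b and 3 gamma c genes. RefSeq lists 58 such genes, and the other 10 (9 alpha genes and Pcdhb1) were not analysed here. Members were chosen by symbol alone, but the family as a whole was selected on counts of these same libraries, in which some members were seen to be on in 1 group and off in another. Which members were on and how high the clusters stood is therefore description, given without a test.

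RNA was sequenced from the immortalized mouse myoblast line C2C12, whose labels give a wild-type genotype. Cells of all groups stably carried a short hairpin RNA and had spent 48 h in differentiation medium with low horse serum, in which myoblasts stop dividing and fuse into myotubes. The hairpin was a scrambled non-targeting sequence in the control group (shScr), or was directed at the Pkm1 isoform (shPkm1) or the Pkm2 isoform (shPkm2) of the pyruvate kinase gene Pkm, with 2 libraries in each of the 3 groups. No group without a hairpin is among the libraries, and the labels say neither whether a line is a clone or a pool nor whether replicates were separate cultures. The p-values below then measure only the spread between these libraries, which may be technical.

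In neurons, where the family is best known, each cell switches on its own selection of isoforms, and the proteins bind like with like between cells, so that a neuron tells its own branches from those of others. Each alpha and gamma isoform starts from its own promoter and its own large variable exon, which is spliced to constant exons shared by the whole cluster. The variable exon encodes the extracellular domains and the constant exons encode the common cytoplasmic tail. Beta genes have no constant exons. Promoter choice depends on CTCF and the cohesin complex, which bring a promoter next to distant enhancers, and on DNA methylation, which silences promoters. The C-type isoforms at the end of the alpha and gamma clusters are known for broader and more even use than the others.

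That gene structure decides which reads can be told apart. In GRCm38 (mm10) the alpha cluster spans chromosome 18 from 36930285 to 37188897, the beta cluster 37264998 to 37521419 and the gamma cluster 37661775 to 37841873. All 21 beta members had a single exon. The 5 alpha and 22 gamma members had 4 exons each and shared exons 2 and 3 and the start of exon 4 within their cluster. In the GENCODE models the exons after the variable one made up 48.6% to 54.9% of an alpha transcript (median 53.5%). They made up 13.4% to 45.5% of a gamma transcript (median 44.8%). The lowest was Pcdhgb8, whose later exons hold 375 bases in its model against 2116 to 2119 in the other gamma members. The counts were made on RefSeq transcripts, which can differ from these models. In the second shPkm2 library 134 counts of Pcdhgb8 stood at 1.55 FPKM, and 128 counts of Pcdhga4 at 1.51. FPKM scales counts to transcript length and library size. Pcdhgb8 was therefore counted at about the length of Pcdhga4, whose model has 4727 bases. A read from the shared stretch matches every member of the cluster that holds it. Reads further along exon 4 match the gamma transcripts counted with that stretch, which by its counted length may include Pcdhgb8. How the counting treated such reads is not given in the sources used here and is read from the fractions of the counts.

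Beta values were whole numbers (within 0.005 counts) in 108 of 116 cases above 0 (93.1%), against 1 of 118 gamma values (0.847%) and 4 of 8 alpha values. Over all transcripts of the table the share was 16.9%. The few fractional beta values came in pairs that added up to a whole number. In the second shScr library, for example, Pcdhb11 held 12.27 counts and Pcdhb12 24.73, which makes 37. In the GENCODE models those genes share an identical run of 115 bases, against a median of 50 over all 210 beta pairs. The longest run, 455 bases, joins Pcdhb21 and Pcdhb22, but all of their counts were whole. In the first shScr library 77 counts of Pcdhb22 stood at 1.39 FPKM and 76 of Pcdhb16 at 0.79. The model of Pcdhb22 is the longer (6609 against 5225 bases), so a shorter form of it was counted. That run may thus lie outside the transcripts counted. Beta counts can be read gene by gene except between pairs that share reads, while a gamma or alpha count is an estimate. A sum over a cluster does not depend on how reads were divided among its measured members. Reads given to the alpha genes that were not measured would be missing from the alpha sum. The fractional gamma values added up to a whole number (within 0.05 counts) in only 2 of 6 libraries, so the gamma sum can still hold parts of reads shared with transcripts outside the family.

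Libraries held between 18216896 and 19796036 estimated counts, and members took 0.0623% to 0.113% of a library. The Pkm1 isoform stood at 546 and 589 TPM (the deposited measure scaled to transcript length) in shScr, 243 and 218 in shPkm1 and 254.1 and 254.2 in the libraries labelled shPkm2. The Pkm2 isoform stood at 1073 and 1517, then 1278 and 1379, then 2700 and 2630 TPM, so that it was not lower in the libraries labelled shPkm2. In what follows shPkm2 stands for the libraries so labelled. The 12 muscle markers, which fit the label of the line, summed to 42320 and 30750 CPM (counts relative to library size after TMM scaling) in shScr, 12620 and 14350 in shPkm1 and 2124 and 2081 in the libraries labelled shPkm2. The shScr pair differed most, with a chi-square per degree of freedom of 31.0 over genes against 6.01 and 6.67 in the other pairs. In bulk RNA, fewer cells of a type and less RNA per cell cannot be told apart.

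A member was counted as on in a library with more than 3 estimated counts. The libraries had 34 and 37 members on in shScr, 39 and 38 in shPkm1 and 38 and 37 in shPkm2. Members on in both libraries of a group numbered 33 in shScr, 38 in shPkm1 and 34 in shPkm2, and 31 were on in all 6 libraries. The 5 members off in every library were Pcdha9, Pcdha10, Pcdhb6, Pcdhb8 and Pcdhb13, which the naming rule does not single out apart from Pcdha9. By cluster, the beta genes on in both libraries numbered 16 of 21 in each group. The gamma genes on in both libraries numbered 17, 21 and 18 of 22 in shScr, shPkm1 and shPkm2. A total of 11 members were on in only 1 library of some group, more than the gap between 33 and 38. At a threshold of 10 counts the numbers were 29, 31 and 31.

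**Figure D1:**
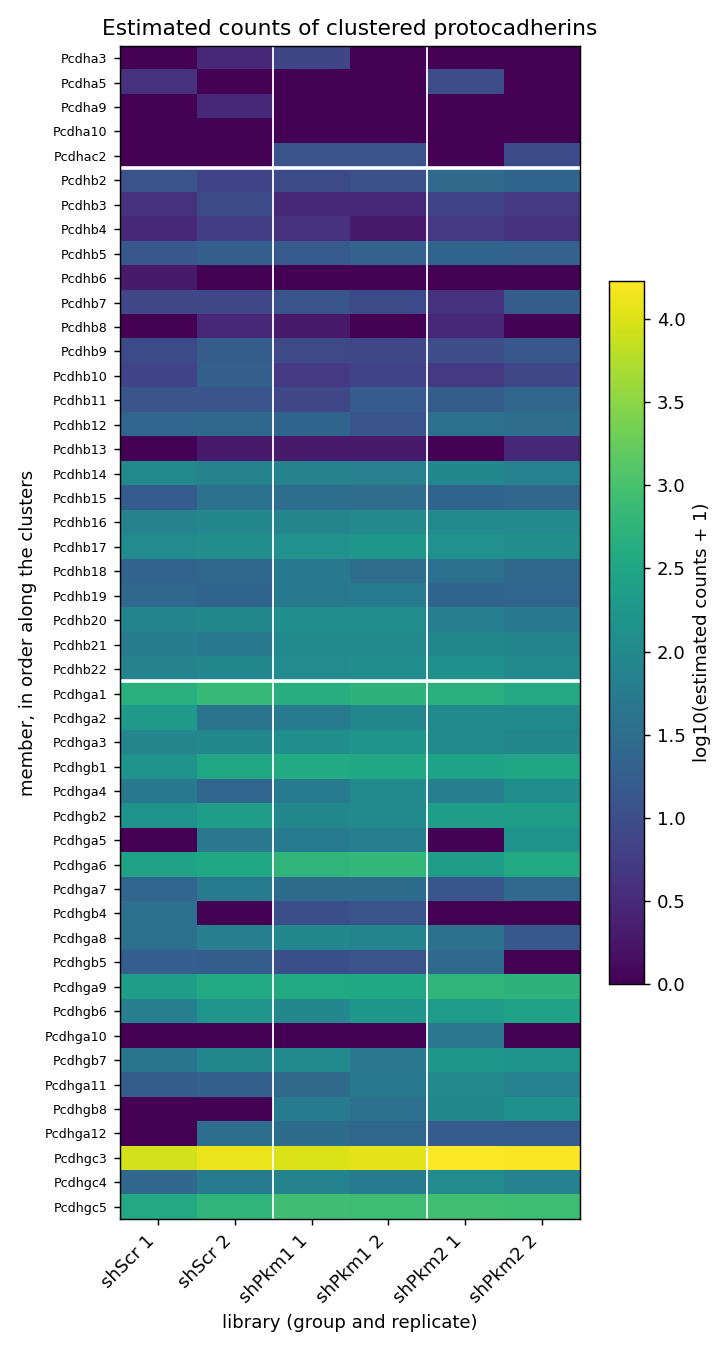
Estimated counts of the 48 members (rows, in order along the alpha, beta and gamma clusters) in the 6 libraries (columns, by group and replicate), coloured on a scale of log10(estimated counts + 1). Pcdhgc3 near the bottom is the highest row in every library, the 5 alpha rows at the top are near 0, and Pcdhgb8 is at 0 in both shScr libraries alone.

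Only 4 members were on in both libraries of a group and off in both of another: Pcdhac2, Pcdhb3, Pcdhgb4 and Pcdhgb8. Pcdhgb8, annotated by RefSeq as a transcribed pseudogene and by GENCODE as a polymorphic pseudogene, held 0 and 0 counts in shScr, 51.6 and 33.6 in shPkm1 and 92.3 and 134 in shPkm2. Both hairpin groups lay above both controls, and shPkm2 above shPkm1. Set against a floor of 3 counts per library, the mean level was at least 12.4-fold higher in shPkm1 and at least 29.9-fold higher in shPkm2 than in shScr. This rise was known when the family was chosen. How much of it is divided reads was not tested. Pcdhb3, a beta gene, held 3 and 8 counts in shScr, 2 and 2 in shPkm1 and 6 and 4 in shPkm2, all within a few counts of the threshold.

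Across the 3 contrasts, 37 of the 48 members passed the filter on low counts (1 alpha, 15 beta and 21 gamma genes) and were tested with edgeR's quasi-likelihood test, adjusted by Benjamini-Hochberg over all 12643 genes tested. The members left out were 4 alpha genes, Pcdhb3, Pcdhb4, Pcdhb6, Pcdhb8, Pcdhb10, Pcdhb13 and Pcdhga10. In shPkm1 against shScr 10 members passed the threshold of 0.05, or 27.0% of those tested, while 63.1% of all genes passed. The 8 members that were higher stand beside 31.8% of all genes, and the 2 that were lower beside 31.4%. In shPkm2 against shScr 14 passed, or 37.8% against 68.0% of all genes, with 9 higher (33.9% of all genes) and 5 lower (34.2% of all genes). In shPkm2 against shPkm1 13 passed, or 35.1% against 53.0% of all genes, with 7 higher (25.7% of all genes) and 6 lower (27.3% of all genes). The contrasts share libraries with each other, and the calls include Pcdhac2, Pcdhgb4 and Pcdhgb8, whose on and off values are description, and Pcdhb2, which passed the filter through shPkm2.

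Members with a call were thus a smaller share than genes in general, also within a wide range of depth. Of the 20 members with a mean of 50 to 500 counts, 6, 9 and 8 were called in the 3 contrasts, against 61.8%, 68.0% and 51.8% of all genes in that range. The median log2 fold change of the tested members was 0.23 in shPkm1 against shScr, 0.03 in shPkm2 against shScr and 0.03 between the hairpin groups, against medians of all genes within 0.01 of 0. By cluster, 2 of 15 beta and 7 of 21 gamma members were called in the first contrast, 2 and 12 in the second, 3 and 10 in the third. Scaling by library totals alone brought the median of all genes to 0.19, 0.33 and 0.14. It gave 11 members higher and 1 lower, 13 higher and 3 lower, and 9 higher and 6 lower. DESeq2 called 5 members in shPkm1 against shScr, without Pcdhb19, Pcdhb21, Pcdhga1, Pcdhga3 and Pcdhga11, and it lost Pcdhb2, Pcdhgb4 and Pcdhgc4 in the second contrast and Pcdhb2, Pcdhgb4 and Pcdhga11 in the third. In shPkm2 against shPkm1 22 members were called without either shScr library and 8 without the second shPkm1 library. Over all genes the calls were 7986 of 12884 and 7987 of 12897 without a shScr library and 4975 of 12897 without that shPkm1 library, against 6703 of 12643 with all libraries.

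**Figure D2:**
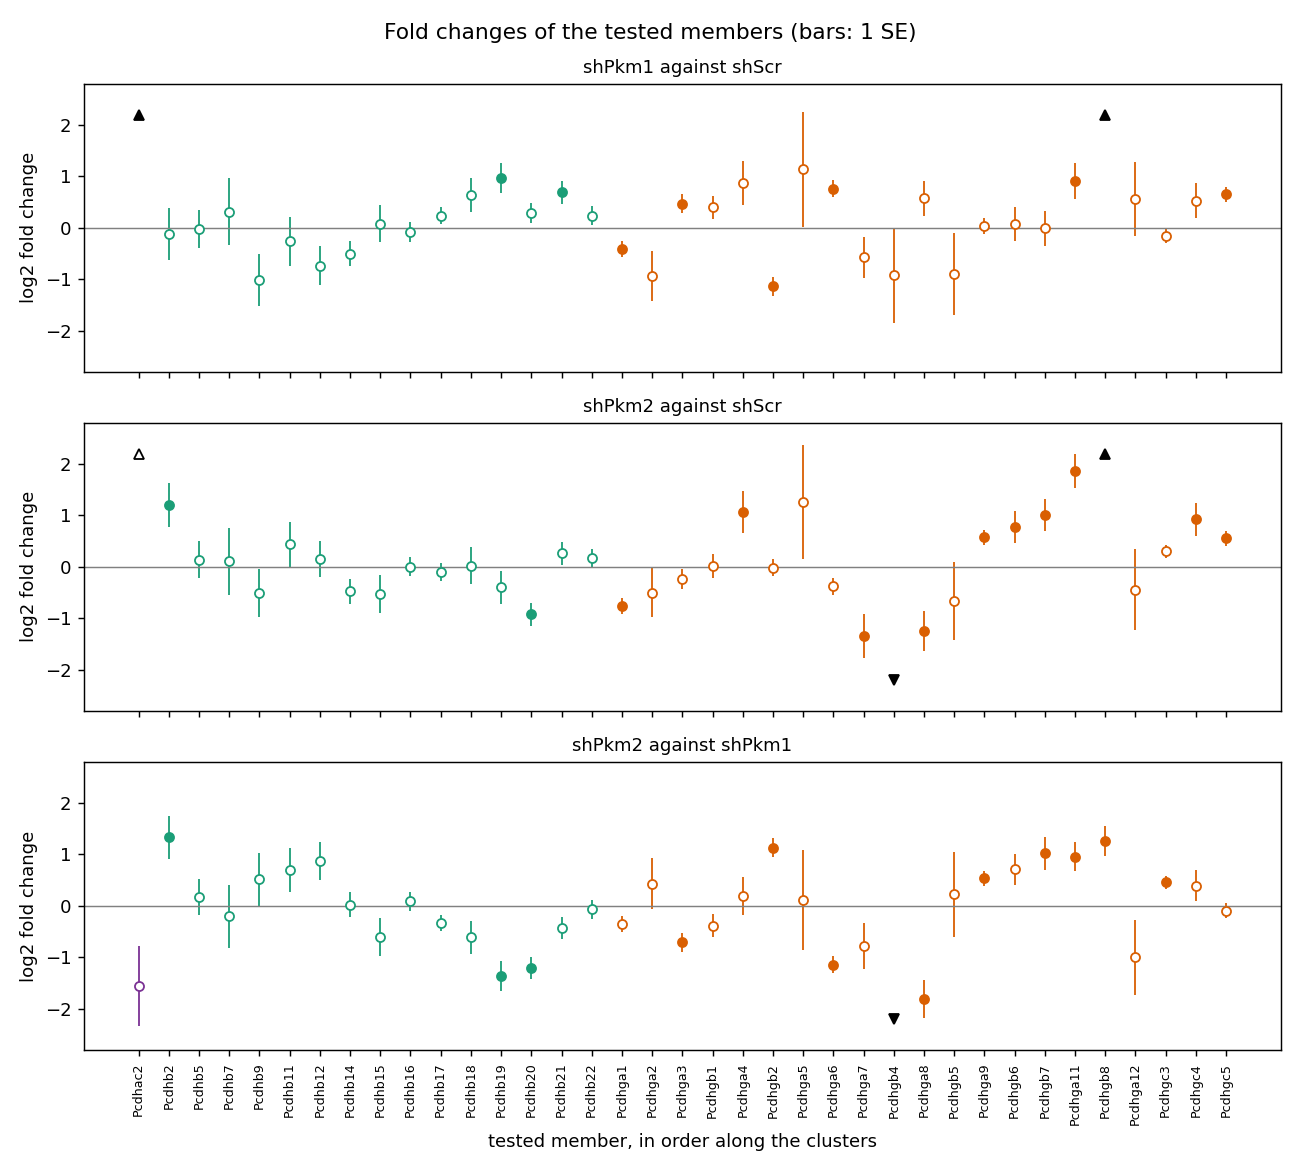
Log2 fold changes (y axis, bars of 1 SE) of the 37 tested members in order along the clusters, for shPkm1 against shScr, shPkm2 against shScr and shPkm2 against shPkm1. Filled symbols have an adjusted p under 0.05 (10, 14 and 13 members), purple is alpha, green beta and orange gamma, and black triangles mark only the direction where both libraries of a group held 3 counts or fewer.

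The 5 measured alpha members were near 0. They summed to 3 and 4 estimated counts in shScr, 18 and 11 in shPkm1 and 9 and 8 in the libraries labelled shPkm2, with no value above 11.23 for any gene. With the controls at 3 and 4 counts no ratio of these sums is given. Pcdhac2, a C-type isoform at the end of the cluster, held 0 and 0, then 11.2 and 11, then 0 and 8 counts. The mean shPkm1 level was at least 3.21-fold above the floor of 3 counts, and the shPkm2 libraries disagreed. It was the single alpha gene to pass the filter, which it did through the shPkm1 libraries where it was high, so its call in that contrast is no support for a difference. Of the other alternate isoforms, Pcdha3 held 2.02 counts in the second shScr library and 6.77 in the first shPkm1 library and was at 0 elsewhere. Pcdha5 held 3 counts in the first shScr library and 9 in the first shPkm2 library, and Pcdha9 held 1.98 in the second shScr library alone. Pcdha10 was at 0 in all 6 libraries, and a count of 0 allows up to 3 counts per library.

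The beta cluster was low. Its members summed to 653 and 723 counts in shScr, 859 and 868 in shPkm1 and 828 and 756 in shPkm2, or 41.1 ± 0.385 CPM (SD, n = 2), 44.8 ± 1.31 and 37.5 ± 2.05. The groups did not overlap, but the order depends on the scale. The log2 ratio of the sums was 0.12 for shPkm1 over shScr and -0.26 for shPkm2 over shPkm1, while that of shPkm2 over shScr was -0.13 with TMM and turned to 0.19 with library totals and 0.33 in TPM. Per length, the cluster as a whole reached 15.9 to 25.2 TPM in a library.

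Of the 4 beta genes with the highest CPM, 3 had no call. Pcdhb17 stood at 6.85 and 6.72 CPM in shScr, 7.40 and 8.55 in shPkm1 and 6.50 and 6.16 in shPkm2, an order without overlap. It was called in shPkm1 against shScr with library totals (0.43, adjusted p 0.0406) and with limma on FPKM. Pcdhb22 stood at 4.88 and 5.09, then 5.86 and 5.87, then 6.12 and 5.06 CPM, and Pcdhb16 at 4.82 and 5.09, then 4.37 and 4.96, then 4.94 and 5.01. Pcdhb22 was called in shPkm2 against shScr with library totals (0.49, adjusted p 0.0372) and with limma on FPKM. For Pcdhb16 the log2 fold change of shPkm2 over shScr was 0.01 with an SE of 0.189.

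Pcdhb20 was the fourth of these genes. It stood at 5.13 and 5.31 CPM in shScr, 6.87 and 5.87 in shPkm1 and 3.11 and 2.39 in shPkm2. The shPkm2 libraries lay below all the others. The fall was -0.93 on the log2 scale against shScr (SE 0.216, edgeR adjusted p 0.00191) and -1.21 against shPkm1 (SE 0.210, edgeR adjusted p 0.0003). Both calls held in every alternative run, with an adjusted p of at most 0.0307, and the first was -0.60 with library totals.

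Its neighbour Pcdhb19 was highest in shPkm1. It stood at 1.59 and 1.24 CPM in shScr, 2.66 and 2.83 in shPkm1 and 1.04 and 1.10 in shPkm2. The rise over shScr was 0.96 (SE 0.287, edgeR adjusted p 0.0103), and the fall from shPkm1 to shPkm2 was -1.36 (SE 0.288, edgeR adjusted p 0.00139). The call over shScr was lost without the second shScr library (0.79, adjusted p 0.0517) and without the second shPkm1 library (0.92, adjusted p 0.0652), while that between the hairpin groups held throughout. In the GENCODE models Pcdhb19 and Pcdhb20 share an identical run of 105 bases, but all of their counts were whole.

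Pcdhb2 was high in shPkm2. It held 11 and 6 counts in shScr, 8 and 10 in shPkm1 and 28 and 22 in shPkm2, with log2 fold changes of 1.21 over shScr and 1.33 over shPkm1. It passed the filter through the shPkm2 libraries, where it was high, so its calls in these contrasts are no support for a difference. The value over shScr was 0.76 without the second shScr library. Pcdhb21, which the naming rule does not list, was the other beta gene called in shPkm1 against shScr, at 3.80 and 2.83 against 5.64 and 5.01 CPM (0.69, SE 0.221, edgeR adjusted p 0.0152), a call lost without the second shScr or the first shPkm1 library (adjusted p up to 0.0930). Pcdhb22, with which it shares the longest identical run in the GENCODE models, was not called there (0.23, SE 0.187, edgeR adjusted p 0.292). The other 8 tested beta genes (Pcdhb5, Pcdhb7, Pcdhb9, Pcdhb11, Pcdhb12, Pcdhb14, Pcdhb15 and Pcdhb18) had no call in any contrast, at mean counts from 8.84 for Pcdhb7 to 81.8 for Pcdhb14. Nearest to the threshold was Pcdhb12 in shPkm2 against shPkm1, at 35 and 32 against 22 and 11.4 counts (0.88, SE 0.368, edgeR adjusted p 0.0590).

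The gamma cluster carried nearly all of the family's reads. Its members summed to 10837 and 15802 counts in shScr, 13704 and 15255 in shPkm1 and 20749 and 19640 in the libraries labelled shPkm2. In CPM that was 687 and 893, 729.6 and 771, and 977 and 937. Both shPkm2 libraries lay above the other 4, and the shPkm1 libraries lay between the shScr pair. The log2 ratio of shPkm2 over shPkm1 was 0.35. That of shPkm2 over shScr was 0.28, and it was 0.10 without the first shScr library and 0.48 without the second. With library totals and in TPM that ratio was above 0.28, as given at the end. The ratio of shPkm1 over shScr was -0.07 with TMM and changed sign without the second shScr library (0.13), with library totals (0.11) and in TPM (0.30).

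**Figure D3:**
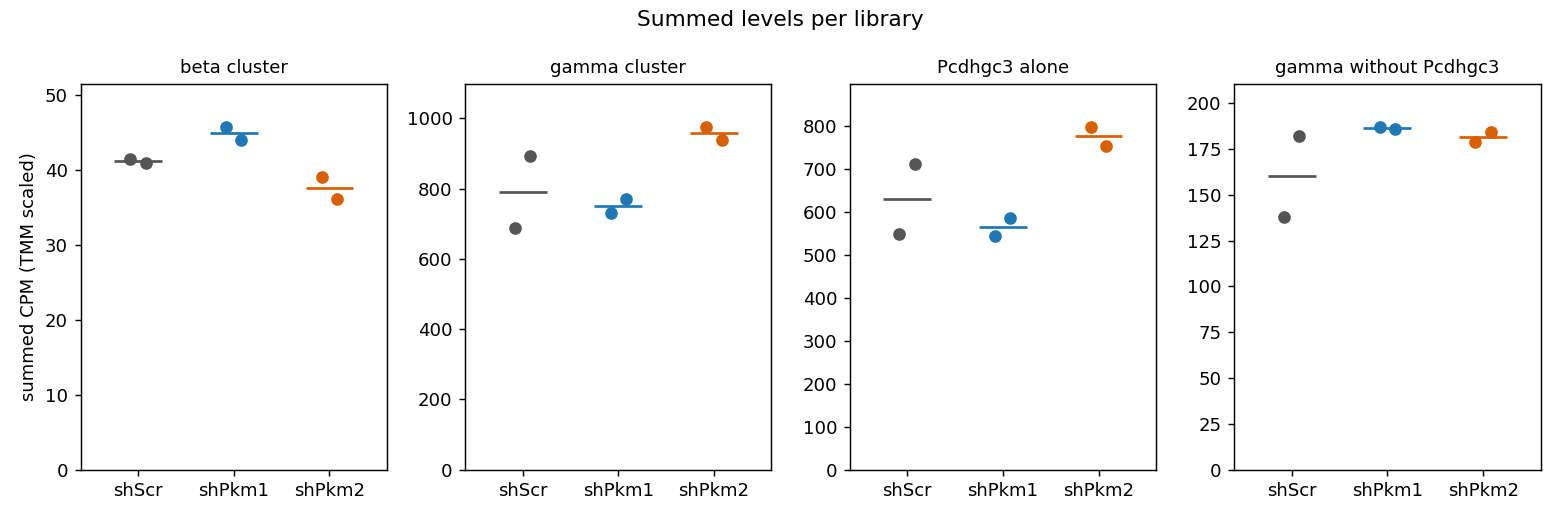
Summed CPM (y axes from 0, TMM scaled) in each library for the beta cluster, the gamma cluster, Pcdhgc3 alone and the gamma cluster without Pcdhgc3; points are the 2 libraries of a group and lines their mean. The gamma panel follows Pcdhgc3, with shPkm2 at 977 and 937 CPM, and the first shScr library lies lowest in the panel without it, at 138 CPM.

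That sum was mostly Pcdhgc3, a C-type isoform. It stood at 549 and 711 CPM in shScr, 542 and 586 in shPkm1 and 798 and 753 in shPkm2, or 79.8% ± 0.237, 75.1% ± 1.12 and 81.0% ± 0.953 (SD, n = 2) of the gamma counts. Per length it reached 153 to 332 TPM and ranked between 408 and 833 among the 17558 genes of a library. The shPkm2 libraries lay above all the others. Over shPkm1 the log2 fold change was 0.46 (SE 0.130, edgeR adjusted p 0.00914), lost without the first shPkm1 library (0.39, adjusted p 0.109) or the first shPkm2 library (0.41, adjusted p 0.0808). Over shScr it was 0.30 (SE 0.130, edgeR adjusted p 0.0547). That value passed in 7 alternatives and in no other. The second shScr library, at 711 CPM, lay nearest to the shPkm2 libraries, and without it the value was 0.50. The other alternatives that passed were library totals (0.62, adjusted p 0.00134) and limma on FPKM at either pseudocount (0.63 and 0.64, adjusted p 0.00276 and 0.00222). DESeq2 (0.30, adjusted p 0.0303) also passed, as did no filter or one at a mean of 50 counts (adjusted p 0.0460 and 0.0499).

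Pcdhgc5 stood at 22.6 and 33.0 CPM in shScr, 45.6 and 41.6 in shPkm1 and 42.6 and 39.1 in shPkm2. All 4 hairpin libraries lay above both controls. The log2 fold change was 0.65 in shPkm1 (SE 0.148, edgeR adjusted p 0.00194) and 0.55 in shPkm2 (SE 0.148, edgeR adjusted p 0.00472), and both calls held in every alternative run. The sizes moved with the control libraries. Without the first shScr library they were 0.40 and 0.31, and without the second the value in shPkm2 was 0.86, close to the 0.87 with library totals. Between the hairpin groups it was -0.09 (SE 0.143, edgeR adjusted p 0.601). Per length Pcdhgc5 was the second member after Pcdhgc3, at a mean of 13.9 against 240.1 TPM.

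Pcdhgc4, whose product is known to matter for the survival of neurons, stood at 1.54 and 3.06 CPM in shScr, 4.02 and 2.65 in shPkm1 and 5.19 and 3.59 in shPkm2. It was called in shPkm2 against shScr (0.92, SE 0.327, edgeR adjusted p 0.0233). The call was lost without the first shScr library (0.52, adjusted p 0.0944) or the first shPkm2 library (0.63, adjusted p 0.195). Without the second shScr library the value was 1.52.

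Gamma a and gamma b genes alternate along the cluster. The 12 gamma a genes summed to 85.2 and 99.5 CPM in shScr, 98.4 and 105 in shPkm1 and 82.9 and 88.1 in shPkm2. The 7 gamma b genes summed to 28.6 and 46.6, then 39.1 and 36.3, then 47.9 and 53.3 CPM. Single members, in contrast, went up and down beside each other.

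Pcdhga6 was high in shPkm1. It stood at 17.4 and 19.5 CPM in shScr, 31.1 and 31.3 in shPkm1 and 11.0 and 17.4 in shPkm2. The log2 fold change was 0.76 over shScr (SE 0.166, edgeR adjusted p 0.00144), and the fall from shPkm1 to shPkm2 was -1.14 (SE 0.167, edgeR adjusted p 7.32e-05). Both calls held in every alternative run. Pcdhgb2, which lies near it, did the reverse, at 9.10 and 13.2, then 4.99 and 5.14, then 11.01 and 11.2 CPM. It was the lowest of all groups in shPkm1, at -1.14 against shScr (SE 0.187, edgeR adjusted p 0.000157), and shPkm2 stood 1.13 above shPkm1 (SE 0.184, edgeR adjusted p 0.000185), calls that also held throughout.

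Pcdhga1, the first gene of the cluster, stood at 28.1 and 37.8 CPM in shScr, 22.6 and 26.9 in shPkm1 and 21.8 and 17.0 in shPkm2. Both shScr libraries lay above the other 4. The fall was -0.41 in shPkm1 (SE 0.157, edgeR adjusted p 0.0345) and -0.76 in shPkm2 (SE 0.159, edgeR adjusted p 0.000798). With library totals the first was -0.23 (adjusted p 0.267). Without the second shScr library it was -0.18 (adjusted p 0.250), and without the first shPkm1 library -0.28 (adjusted p 0.278). The second was -0.45 with library totals (adjusted p 0.0339) and -0.42 with limma on log2(FPKM + 0.1) (adjusted p 0.0773).

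Pcdhga9 rose in shPkm2, at 14.9 and 20.8 CPM in shScr, 19.9 and 16.8 in shPkm1 and 27.4 and 25.8 in shPkm2. The log2 fold change was 0.57 over shScr (SE 0.149, edgeR adjusted p 0.00397) and 0.54 over shPkm1 (SE 0.147, edgeR adjusted p 0.00736). The first call held in every alternative, at 0.36 without the first shScr library and 0.89 with library totals. The second was lost without the second shPkm1 library (0.42, adjusted p 0.102) or the first shPkm2 library (0.49, adjusted p 0.0598). Pcdhga3 was high in shPkm1, at 5.20 and 5.34, then 6.67 and 7.86, then 4.78 and 4.17 CPM. Its rise over shScr was 0.47 (SE 0.184, edgeR adjusted p 0.0391), lost in 4 of the 6 fits without a library (0.35 to 0.48, adjusted p 0.0524 to 0.224). The fall to shPkm2 was -0.71 (SE 0.182, edgeR adjusted p 0.00519), lost without the second library of either hairpin group (-0.58 and -0.62, adjusted p 0.0671 and 0.0585).

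Pcdhga11 rose stepwise from shScr to shPkm1 to shPkm2, at 1.07 and 1.07, 1.52 and 2.53, and 4.52 and 3.36 CPM, with no overlap. Over shScr the log2 fold change was 0.90 in shPkm1 (SE 0.353, edgeR adjusted p 0.0390) and 1.86 in shPkm2 (SE 0.326, edgeR adjusted p 0.000201), the second held in every alternative. The first was lost without the second shPkm1 library (0.47, adjusted p 0.355) or the second shScr library (0.90, adjusted p 0.0523). The step between the hairpin groups, 0.96 (SE 0.289, edgeR adjusted p 0.0131), was lost without the first library of either (0.63 and 0.72, adjusted p 0.154 and 0.158).

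Among the gamma a genes with a call, the largest falls from shScr to shPkm2 were those of Pcdhga7 and Pcdhga8. Pcdhga8 stood at 2.27 and 3.61 CPM in shScr, 4.92 and 3.97 in shPkm1 and 1.82 and 0.657 in shPkm2. The log2 fold change was -1.81 against shPkm1 (SE 0.368, edgeR adjusted p 0.00103), a call held throughout at values down to -2.72 without the first shPkm2 library. Against shScr it was -1.24 (SE 0.389, edgeR adjusted p 0.0123), lost without the second shPkm2 library (-0.69, adjusted p 0.133) and -2.14 without the first. Pcdhga7 stood at 1.47 and 3.23, then 1.59 and 1.56, then 0.586 and 1.29 CPM. Its fall of -1.35 against shScr (SE 0.430, edgeR adjusted p 0.0134) was lost without the second shScr library (-0.65, adjusted p 0.197) or the first shPkm2 library (-0.87, adjusted p 0.146), and was -2.05 without the second shPkm2 library. With library totals neither fall against shScr passed (adjusted p 0.0517 and 0.0566), nor did it with limma on log2(FPKM + 0.1) (adjusted p 0.0922 and 0.0732).

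Among the gamma b genes with the highest CPM, Pcdhgb7 and Pcdhgb6 were high in shPkm2. Pcdhgb7 stood at 2.69 and 5.16 CPM in shScr, 5.35 and 2.48 in shPkm1 and 8.44 and 7.45 in shPkm2, with log2 fold changes of 1.01 over shScr (SE 0.318, edgeR adjusted p 0.0124) and 1.02 over shPkm1 (SE 0.312, edgeR adjusted p 0.0144). Without the first shPkm2 library neither passed (0.92 and 0.92, adjusted p 0.0622 and 0.0817). The value over shScr was 0.63 without the first shScr library and 1.58 without the second. The value over shPkm1 was 0.56 without the second shPkm1 library (adjusted p 0.186) and 1.67 without the first. Pcdhgb6 stood at 4.06 and 9.02, then 4.85 and 8.93, then 9.72 and 13.0 CPM. Its rise over shScr, 0.78 (SE 0.314, edgeR adjusted p 0.0416), was 0.33 without the first shScr library (adjusted p 0.138), 1.48 without the second, and 0.56 without the second shPkm2 library (adjusted p 0.221).

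Pcdhgb1, the highest of the gamma b genes per length at a mean of 5.95 TPM, had no call with all libraries. It stood at 9.49 and 18.3 CPM in shScr, 20.2 and 16.9 in shPkm1 and 13.1 and 15.2 in shPkm2, with the hairpin libraries inside or near the range of the controls. Its value over shScr in shPkm2 was 0.02, but -0.37 without the first shScr library (adjusted p 0.0203) and 0.58 without the second (adjusted p 0.00194). In shPkm1 it was 0.40 over shScr, 0.96 without the second shScr library (adjusted p 9.72e-07) and 0.58 with library totals (adjusted p 0.0492). Between the hairpin groups it was -0.38, called without either shScr library and in a fit of those groups alone (adjusted p 0.00375 to 0.0042).

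Pcdhgb4 held 33.7 and 0 counts in shScr, 9.44 and 11.6 in shPkm1 and 0 and 0 in shPkm2. The groups shScr and shPkm2 overlap at 0, and without the first shScr library the log2 fold change between them was 0.00. Against shPkm1, where the groups did not overlap, shPkm2 was at least 3.83-fold lower by the mean of the shPkm1 libraries and 3.54-fold by the lower of them. The call in that contrast was lost in 7 of 13 alternatives, among them leaving out any 1 of the 4 libraries compared. For Pcdhgb8, described above, the rise over shScr was known when the family was chosen. Its log2 fold change from shPkm1 to shPkm2 was 1.26, a description of the same counts.

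The spread between replicates was wider among the gamma than among the beta genes. Among members with a mean of at least 20 counts, the median absolute log2 ratio of CPM + 0.1 between replicates was 0.16 for 10 beta genes and 0.42 for 18 gamma genes. On that scale 7 gamma genes and 0 beta genes were over 2-fold apart in at least 1 group (Pcdhga2, Pcdhga4, Pcdhga5, Pcdhga7, Pcdhga8, Pcdhgb6 and Pcdhgb7). Without the added 0.1 the beta genes Pcdhb15 in shScr (1.01 and 2.09 CPM) and Pcdhb12 in shPkm1 (1.17 and 0.578 CPM) were also just over 2-fold apart. Several of the genes in this paragraph lie outside the naming rule and are given because of that spread. Pcdhga5 held 0 and 47.7 counts in shScr, 53.9 and 66.0 in shPkm1 and 0 and 142 in shPkm2. Pcdhga2 held 184 and 41.2 in shScr, and Pcdhga10 held 48.2 counts in the first shPkm2 library and 0 in the other 5. Pcdhga12 held 0 and 32.7 counts in shScr, 29.9 and 24.9 in shPkm1 and 15.1 and 14.9 in shPkm2, and Pcdhgb5 held 27.3 and 0 in shPkm2. These members (Pcdhga2, Pcdhga5, Pcdhga12 and Pcdhgb5) had no call in any contrast, and Pcdhga10 was not tested. Pcdhga4 was called in shPkm2 against shScr (1.07, SE 0.411, edgeR adjusted p 0.0336) although its 3.14 CPM in each first library of these groups was nearly the same, and the call was lost without the second library of either group (adjusted p up to 0.351). The part of the division of shared reads in this spread was not tested.

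**Figure D4:**
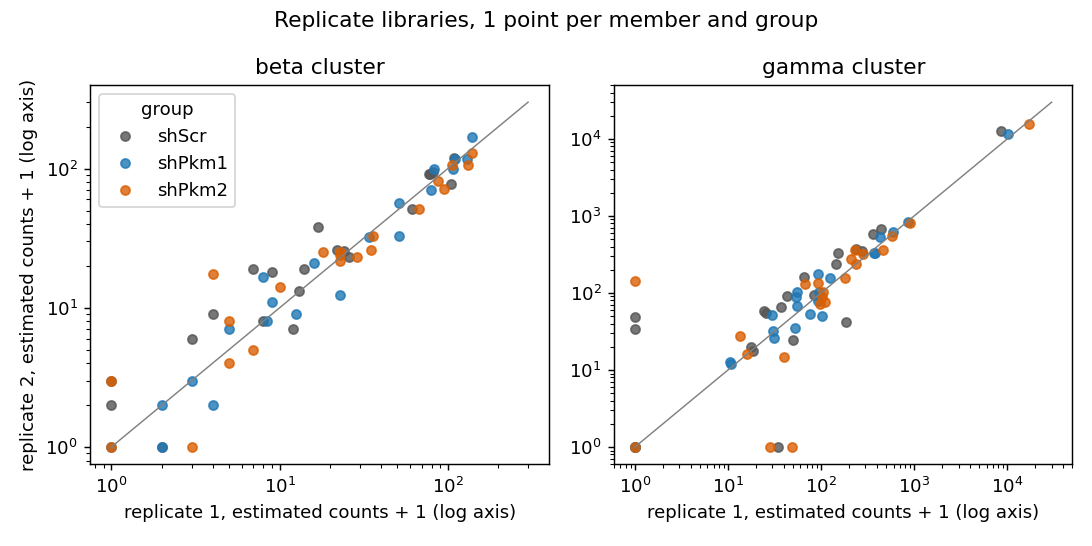
Estimated counts + 1 of each member in replicate 1 (x axis, log scale) and replicate 2 (y axis, log scale), 1 point per member and group, for the beta cluster (left) and the gamma cluster (right); the line marks equal counts. Gamma points at 1 on an axis are members at 0 counts in that library, such as Pcdhga5 with 0 and 142 counts in shPkm2. Members at 0 counts in both libraries, such as Pcdhgb8 in shScr, lie at 1 on both axes.

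Genes known to act on protocadherin promoters were read in the same fit, and the counts of this and the following lists stand beside shares of all genes of 31.8% higher and 31.4% lower in shPkm1, 33.9% and 34.2% in shPkm2, and 25.7% and 27.3% between the hairpin groups. Whether a list differs from other genes was not tested. Of 29 chromatin regulators, all tested, 13 were higher and 4 lower in shPkm1 than in shScr, 18 higher and 2 lower in shPkm2, and 15 higher and 0 lower in shPkm2 than in shPkm1. Their median log2 fold changes were 0.29, 0.55 and 0.30. Ctcf, the factor that binds the promoters, stood at 51.7 and 47.6 CPM in shScr, 63.5 and 59.4 in shPkm1 and 113 and 99.4 in shPkm2, which is 1.10 higher in shPkm2 (SE 0.104, edgeR adjusted p 8.12e-07). The cohesin loader Nipbl was 1.10 and 1.35 higher, the cohesin-bound Pds5b 1.13 and 1.56 and Pds5a 1.08 and 1.32 higher in shPkm1 and shPkm2. The cohesin subunit Smc3 was 0.81 and 1.59 higher.

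Of the DNA methyltransferases on that list, Dnmt1, which maintains methylation, was 0.31 higher in shPkm1 and 1.63 higher in shPkm2 than in shScr, with its partner Uhrf1 0.48 and 1.99 higher. The de novo methyltransferase Dnmt3a was lower, at -0.52 and -0.47, and Dnmt3b had no call (0.46 and 0.57). Of the demethylating enzymes, Tet1 and Tet2 were 0.94 and 0.55 higher in shPkm2 than in shScr, and Tet3 had no call in any contrast. The cohesin loader subunit Mau2 was lower in both hairpin groups, at -0.45 and -0.43. Setdb1, a histone methyltransferase that silences chromatin, was lower in shPkm1 (-0.34, edgeR adjusted p 0.00992) and had no call in shPkm2 (0.21). The part of these genes in the levels of the protocadherins was not tested.

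Of 20 genes whose products cut protocadherins or take up their signal, 9 were higher and 4 lower in shPkm1, 11 and 4 in shPkm2, and 5 and 5 between the hairpin groups. Adam10, the protease that sheds the extracellular part, was 0.76 and 1.07 higher in shPkm1 and shPkm2. Of the gamma-secretase genes, Psen2 was lower, at -0.63 and -1.59, and so was Aph1a, at -0.38 and -0.53. Ncstn was 0.39 higher in shPkm1 (edgeR adjusted p 0.00544) and had no call in shPkm2 (-0.03), and Psenen had no call in either (0.23 and 0.24). The kinase Ptk2b, which the constant tail is known to inhibit, was 1.12 and 0.32 higher, and Prkca 1.43 and 1.26. Ret was 1.55 higher in shPkm1, and the kinase Fyn fell by 1.76 on the log2 scale in shPkm2. The actin regulators Wasf1, Snx9 and Marcks stood 0.95, 0.75 and 0.70 higher in shPkm2 than in shPkm1.

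Among relatives outside the clusters, of 21 non-clustered protocadherins and large cadherins 9 were tested, and 4 were higher and 2 lower in shPkm1, 5 and 2 in shPkm2, and 3 and 0 between the hairpin groups. Pcdh19 stood at 14.4 and 15.2 CPM in shScr, 43.1 and 37.0 in shPkm1 and 77.2 and 63.7 in shPkm2 (1.43 and 2.25 over shScr). Pcdh18 was 1.57 and 1.51 higher and Fat4 1.92 and 1.63. Pcdh1 was lower in shPkm1 (-1.90) and less so in shPkm2 (-0.45), and Fat1 stood 0.47 higher in shPkm2 than in shPkm1. Celsr3 held 14 and 15 counts in shScr and 2 and 3 in shPkm2, at least 6.10-fold lower. It passed the filter through shScr, where it was high, so its place among the lower genes is no support for a difference.

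Among the classical cadherins, which hold cells together through catenins, 6 of 18 were tested, and 3 were higher and 2 lower in shPkm1, 2 and 3 in shPkm2, and 2 and 3 between the hairpin groups. The muscle cadherin Cdh15 was -0.64 and -1.43 and the neural cadherin Cdh2 -0.80 and -0.54 against shScr. Cdh11 stood 1.32 higher in shPkm1 and Cdh18 2.48 higher in shPkm2. Cdh13 stood at 78.0 and 86.0 CPM in shScr, 122 and 120.3 in shPkm1 and 43.6 and 38.2 in shPkm2, and Cdh24 was 0.81 and 0.70 higher.

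Of 14 genes next to the clusters on the chromosome 12 were tested, and 2 were higher and 4 lower in shPkm1, 2 and 2 in shPkm2, and 2 and 2 between the hairpin groups. Diaph1, an actin nucleator, was 0.61 higher in shPkm2 than in shScr, and Hars2 0.53. Wdr55 was -0.63 and -0.57 and Ndufa2, a subunit of respiratory complex I, -0.40 and -0.54 in shPkm1 and shPkm2. Arap3 held 3 and 2 counts in shScr and 31 and 33 in shPkm1, at least 9.23-fold higher. It passed the filter through shPkm1, where it was high, so its place among the higher genes is no support for a difference. Fchsd1 was 0.64 higher and Rell2 -0.92 in shPkm1. Hars stood 0.34 higher in shPkm2 than in shPkm1.

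Cell type markers differed between the groups. Of the 12 muscle markers 11 were lower in every contrast, and Cdh15 is also one of the classical cadherins above. Ckm, Acta1, Myh3, Tnnt3 and Mymk, genes of contraction and fusion, changed by between -7.36 and -8.16 on the log2 scale in shPkm2 against shScr, and Myf5, an early myogenic factor, stood 1.74 higher. Of 12 neuron markers 7 were tested, with 2 higher and 3 lower in shPkm1, 5 and 0 in shPkm2, and 4 and 1 between the hairpin groups. Their sum was 98.1 and 114.5 CPM in shScr, 74.9 and 82.2 in shPkm1 and 526 and 565.5 in shPkm2, most of it Stmn2 (414 and 455 CPM in shPkm2), with Nefl 2.23 and Gap43 1.35 higher there. In shPkm1 against shScr, Syt1 and Map2 were 2.56 and 2.50 higher, while Nefl, Gap43 and Stmn2 were lower, at -2.14, -0.71 and -0.44. Syt1 held 4 and 7 counts in shScr, 28 and 48 in shPkm1 and 30 and 24 in shPkm2. It passed the filter through the hairpin groups, where it was high. Its place among the higher genes of both hairpin groups is therefore no support for a difference. The defining markers Rbfox3, Snap25, Dcx and Elavl4 were at 1 count or less in every library.

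Of 8 measured glia markers 2 were tested, with 1 higher and 0 lower in shPkm1, 2 and 0 in shPkm2, and 1 and 1 between the hairpin groups. Slc1a3, a glutamate transporter, stood at 3.80 and 4.58 CPM in shScr, 106 and 92.8 in shPkm1 and 59.1 and 54.3 in shPkm2, and Mbp was 1.42 higher in shPkm2. The glial markers Sox10 and Olig1 were at 1 count or less in every library. The part of the muscle, neuron and glia markers in the protocadherin values was not tested.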

How the data were processed

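The deposited table holds 57920 RefSeq transcripts in 6 libraries. Per the file headers it gives estimated counts, FPKM and TPM values that the authors computed for each transcript, and the submitters' processing notes name HISAT, StringTie, Bowtie, RSEM, DESeq2 and the build mm10 without saying which made which column. Read length and strand are not given in the sources used here. The 9 columns of the authors' group means were not used.

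Estimated counts were summed per NCBI gene and rounded; each member had 1 transcript. Symbols came from RefSeq (17445 of 17558 genes), exons from GENCODE vM21. Genes passing filterByExpr (minimum count 10, total 15) were fitted in edgeR 4.0.16 (R 4.3.3) with TMM scaling and 1 coefficient per group over all 6 libraries, tested two-sided by the quasi-likelihood F-test and adjusted by Benjamini-Hochberg. The biological coefficient of variation was 0.0851. A permutation of 2 against 2 libraries cannot give a p below 0.333, so no single-value test was made. Floors of 3 counts cover counting error only.

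Alternatives were DESeq2 1.42.0, limma 3.58.1 on log2 FPKM (pseudocounts 1 and 0.1), other size factors and filters, fits of the groups compared, a replicate block and leaving out each library. Members and gene lists were chosen with earlier results of these data known. Named with values were the 4 members with the highest mean CPM in alpha, beta, gamma a and gamma b, all C-type members, the 3 largest called rises and falls per contrast, members on in 1 group and off in another, and up to 3 called genes per direction and list. Of the genes this rule names, 1 is not reported here. No DNA or protein sequence is given.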

Additional observations from a re-analysis of the deposited data

How the results depend on the processing

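Precision is limited by 2 libraries per group, by low counts of the beta genes and by the division of shared gamma reads. The log2 ratio of the summed beta cluster moved from 0.12 to 0.32 with library totals and 0.51 in TPM for shPkm1 over shScr, from -0.13 to 0.19 and 0.33 for shPkm2 over shScr, and from -0.26 to -0.13 with library totals between the hairpin groups. That of the gamma cluster moved from -0.07 to 0.30 in TPM, from 0.28 to 0.60 with library totals and 0.72 in TPM, and from 0.35 to 0.48 with library totals. Library totals carry no factor for the composition of a library. Members called numbered 5 in place of 10 with DESeq2 in shPkm1 against shScr and 20 in place of 13 in a fit of the hairpin groups alone; the cause was not tested. Over all genes these fits called 6938 of 13512 in place of 7984 of 12643, and 7831 of 12441 in place of 6703 of 12643. Leaving out each library gave 7 to 15, 13 to 18 and 8 to 22 called members. The log2 fold change of Pcdhgb1 in shPkm2 against shScr, 0.02, was -0.37 without the first shScr library and 0.58 without the second. That of Pcdhgb4 in shPkm1 against shScr, -0.92, was 6.44 and -1.97, since the first library held 33.7 counts of it and the second 0; against that 0 the value 6.44 depends on the prior count and is no bound. With a mean of at least 50 counts required, 7, 11 and 9 members were called. Of 35 called values of named members, 21 lost the call in at least 1 alternative. Same-numbered libraries did not deviate together (correlations of -0.03, 0.04 and 0.05), and the replicate number as a block gave 10, 15 and 14 called members, with calls added for Pcdhga6 in shPkm2 against shScr (adjusted p 0.0332) and Pcdhgb6 between the hairpin groups (adjusted p 0.00311).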
